A study of Mus musculus with 4 samples.

Results

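Binding of MIZ-1, measured by chromatin immunoprecipitation and sequencing (ChIP-seq), was examined at the genes of the Toll-like receptors Tlr1 to Tlr9 and of their shared adaptor, Myd88. These 10 genes of the 21951 protein-coding genes of the GENCODE basic annotation were taken by name, and every peak was listed that lay in the gene body or from 2000 bp before to 1000 bp after an annotated transcript start, the promoter window used here. MIZ-1 is a zinc finger transcription factor whose POZ domain mediates contacts with itself and with cofactors. B220+ splenocytes, which are splenic cells of the B lineage, came from mice with unaltered MIZ-1 (MIZ-1WT) and from MB1-Cre x Miz-1floxPOZ mice (MIZ-1DPOZ). In the latter, Cre driven by the promoter of the B lineage gene Cd79a (MB1) deletes the POZ domain, so that their B cells make a truncated MIZ-1 that keeps its zinc fingers. Both lines were on a C57BL/6 background, no stimulation is named for these cells, and the same antibody (Miz-1 H-190) was used for both. The study describes fewer follicular and relatively more marginal zone B cells in MIZ-1DPOZ spleens, and a difference in this mixture cannot be told apart from a difference in MIZ-1 binding per cell. Peak positions carry no expression, so the B cell identity was not checked against marker genes.

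Each genotype had 1 ChIP library and 1 input library. Differences between the lists are therefore given without a test, and each interval covers counting error only and compares libraries, not genotypes. Peaks numbered 34209 in MIZ-1WT and 78357 in MIZ-1DPOZ. The height of a peak is given as its summit pileup, the number of fragments over the summit, with a median of 9 fragments in MIZ-1WT and 12 in MIZ-1DPOZ. The ratio of library depths, estimated from the background values alone since total depth is unknown, was 1.34 (MIZ-1DPOZ over MIZ-1WT). The score of a peak is the −log10 of its q-value, which started at 1.03 in MIZ-1WT and 1.01 in MIZ-1DPOZ.

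Toll-like receptors recognize conserved microbial molecules, either at the cell surface (lipopeptides, lipopolysaccharide, flagellin) or in endosomes (RNA, DNA). All of them except Tlr3 can signal through MyD88, which assembles IRAK kinases and leads by way of the ubiquitin ligase TRAF6 and the kinase TAK1 to NF-κB and interferon regulatory factors. In mouse B cells this pathway is known for polyclonal activation by lipopolysaccharide (Tlr4) and by unmethylated CpG DNA (Tlr9), and for its part in responses to self RNA (Tlr7).

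Of the 10 genes, 1 had a MIZ-1WT peak in its promoter window (Tlr2) and 3 had a MIZ-1DPOZ peak there (Tlr2, Tlr5 and Myd88), and Tlr2 was the gene with a peak in both. Among all protein-coding genes these shares were 30.9% for MIZ-1WT, 48.7% for MIZ-1DPOZ and 26.6% for both lists. The best-scored of these peaks, that of Tlr2 in MIZ-1DPOZ, ranked 14122 among the 78357 peaks of its list. The Myd88 peak lay at the first exon of the neighbouring gene Acaa1a rather than at the start of the annotated main Myd88 transcript. Tlr1, Tlr3, Tlr6, Tlr7 and Tlr9 had no peak in window or body in either list. The highest pileups at the members were those of MIZ-1DPOZ peaks deep in an intron of the long Tlr4 transcript, at sequence that occurs more than once in the genome.

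The sequences that carry the peaks at the starts are shown on the strand of each member, in mm10 coordinates (the same assembly as GRCm38), 5′ to 3′, with CpG dinucleotides in capitals. Transcribed untranslated parts of the peaks were left out. The Tlr2 stretch, chr3:83841328-83841519 on the minus strand, is the part of the MIZ-1DPOZ peak inside the first intron, and both summits lie in it. It holds 12 CpG and the letters GGGCGG (GC box, either strand) at 2 places.
Tlr2: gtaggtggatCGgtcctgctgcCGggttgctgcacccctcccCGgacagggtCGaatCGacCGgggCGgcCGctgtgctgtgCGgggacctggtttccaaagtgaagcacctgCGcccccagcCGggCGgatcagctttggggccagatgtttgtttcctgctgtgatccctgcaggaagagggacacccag
The Tlr5 peak spanned the first exon, and the stretches before it (chr1:182954704-182954787, plus strand, 3 CpG) and after it (chr1:182954883-182954992, plus strand, 5 CpG) are shown. They hold the GC box letters at 2 places and at 1 place, none of them wholly within 100 bp of the summit.
Tlr5 before exon 1: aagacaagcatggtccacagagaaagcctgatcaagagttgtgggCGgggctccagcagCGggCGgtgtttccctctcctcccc
Tlr5 after exon 1: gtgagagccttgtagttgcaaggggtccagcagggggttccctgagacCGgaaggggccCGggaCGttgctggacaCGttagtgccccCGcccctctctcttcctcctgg
The Myd88 stretch, chr9:119341515-119341775 on the minus strand, runs opposite to Acaa1a and covers the coding part of its first exon and the start of its intron. It holds 31 CpG in 261 bases.
Myd88: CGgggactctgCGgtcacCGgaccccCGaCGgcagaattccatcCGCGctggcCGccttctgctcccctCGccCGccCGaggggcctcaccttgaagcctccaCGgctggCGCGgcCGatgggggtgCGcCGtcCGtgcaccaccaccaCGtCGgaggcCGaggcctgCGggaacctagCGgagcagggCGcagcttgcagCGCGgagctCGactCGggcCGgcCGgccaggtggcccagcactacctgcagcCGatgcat
As an example of a gene without a peak, picked by name, the 250 bases before the start of Tlr9 (chr9:106222348-106222597, plus strand, RefSeq promoter of GRCm38.p6) hold 0 CpG. That value depends on the gene and region shown. Within 500 bp of the first start, Tlr9 had 12 CpG, and Tlr6, also without a peak, had 28.
Tlr9: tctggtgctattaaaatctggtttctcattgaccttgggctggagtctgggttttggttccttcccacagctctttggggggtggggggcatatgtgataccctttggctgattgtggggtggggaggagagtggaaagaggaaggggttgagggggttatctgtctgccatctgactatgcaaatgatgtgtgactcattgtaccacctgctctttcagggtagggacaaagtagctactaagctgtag
RefSeq promoter sequences were matched for 8 of the 10 genes, the exceptions being Tlr4 and Tlr7.

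**Figure D1:**
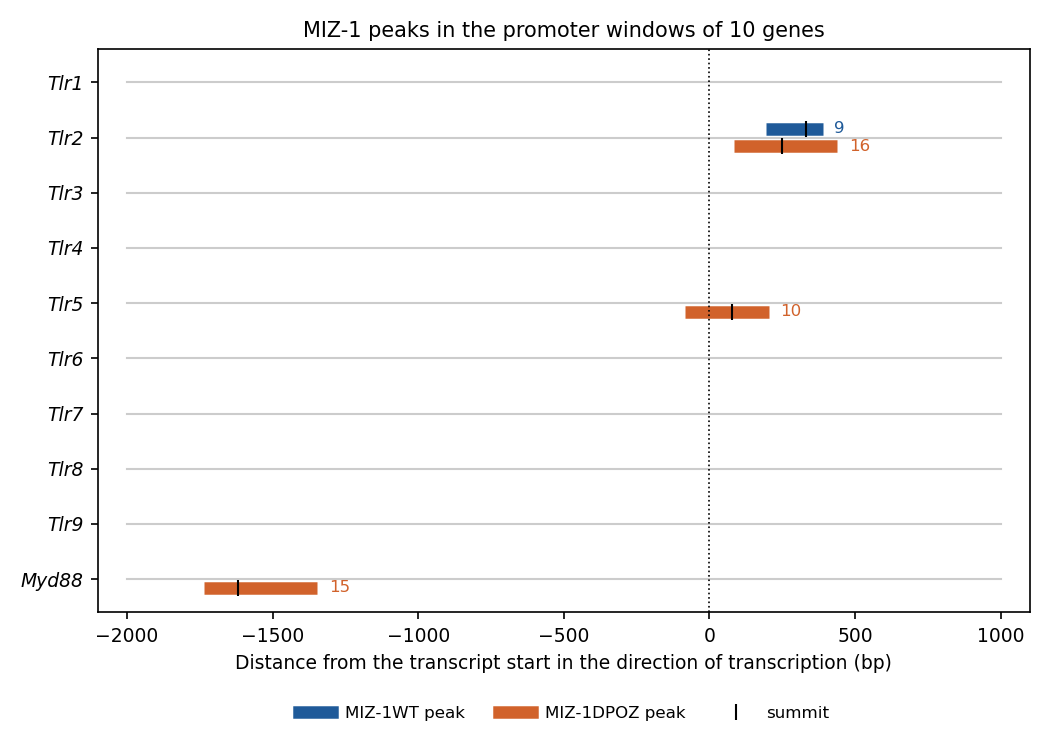
Peaks in the promoter windows of the 10 genes. The horizontal axis is the distance from the transcript start in bp in the direction of transcription, bars are peaks (blue MIZ-1WT, orange MIZ-1DPOZ), black ticks are summits and numbers are summit pileups in fragments. The Tlr2 peaks of the lists overlap just after the start, and the Tlr5 peak covers its start. The summit of the Myd88 peak lies 1620 bp before the start of the main Myd88 transcript.

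Tlr2, which forms heterodimers with Tlr1 or Tlr6 and recognizes lipopeptides, was the member whose start was marked in both lists. The MIZ-1WT peak (chr3:83841378-83841574) had a summit 332 bp after the start of its annotated transcript, a pileup of 9 fragments, a fold enrichment over background of 5.38 and a −log10 q of 4.14. The MIZ-1DPOZ peak (chr3:83841328-83841682) had a summit 249 bp after the start, a pileup of 16, a fold enrichment of 7.24 and a −log10 q of 9.96. Both summits were in the first intron of the transcript, and the MIZ-1WT peak lay wholly within the MIZ-1DPOZ peak. The peaks shared 197 bp, with summits 83 bp apart.

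Divided by the depth ratio of 1.34, the MIZ-1DPOZ pileup at Tlr2 was 1.33 times that of MIZ-1WT, with an exact 95% interval of 0.552 to 3.40 that includes equality. Scaled by the most frequent background of each list, it was 1.13 times. At 5552 pairs of overlapping promoter-window peaks the median of the depth-scaled ratio was 1.08, with quartiles of 0.861 and 1.33, so the Tlr2 pair lay at the upper quartile of these pairs. Within its list the MIZ-1WT peak had a common height, since 59.8% of all MIZ-1WT peaks had as many fragments or more, and for the MIZ-1DPOZ peak this share was 26.5%. A further MIZ-1DPOZ peak (chr3:83836871-83837043) had its summit in the coding exon of Tlr2, 4793 bp after the start. Its 8 fragments were among the lowest of the list, where 98.0% of peaks were at least as high, and MIZ-1WT had no peak there.

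The partners of Tlr2 carried no peak. The nearest MIZ-1WT peak to a start of Tlr1 lay 36.4 kb away and the nearest MIZ-1DPOZ peak 12.8 kb away. For Tlr6, which lies beside Tlr1 on chromosome 5, the nearest peaks of the lists lay 9.94 and 9.90 kb upstream of its start.

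Tlr5, the receptor for bacterial flagellin, had a peak in MIZ-1DPOZ alone. That peak (chr1:182954704-182954992) covered the start of the gene, with its summit 77 bp after it in the untranslated first exon. Its pileup was 10 fragments, its fold enrichment 4.61 and its −log10 q 4.13. This was a low peak for its list, as 81.7% of MIZ-1DPOZ peaks had at least as many fragments, and divided by the depth ratio the pileup came to 7.46 fragments. The nearest MIZ-1WT peak lay 53.5 kb upstream. MIZ-1WT peaks started at 5 fragments and their interquartile range was 8 to 11, so the absence of a MIZ-1WT peak at Tlr5 is not a measure of no signal there.

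Myd88, the adaptor of the family, likewise had a peak in the MIZ-1DPOZ list and none in the MIZ-1WT list. The peak (chr9:119341388-119341775) had a pileup of 15, a fold enrichment of 5.90 and a −log10 q of 7.49. Its summit lay 1620 bp before the start of the main Myd88 transcript and 146 bp after a start of Acaa1a, a peroxisomal thiolase gene transcribed in the opposite direction, in the coding part of the first exon of that gene. The peak touched the Myd88 gene record through 24 bp at the upstream end of that record. There the full annotation has a further coding Myd88 transcript that starts at 119341411, inside the peak. A rule that gives each peak only to the gene with the nearest start moved this peak to Acaa1a and left 2 members with a MIZ-1DPOZ promoter-window peak. Divided by the depth ratio its pileup came to 11.2 fragments, and the nearest MIZ-1WT peak to a Myd88 start lay 17.5 kb upstream.

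Tlr4, the lipopolysaccharide receptor, had no peak in its promoter window, the nearest peaks lying 52.0 kb (MIZ-1WT) and 51.8 kb (MIZ-1DPOZ) upstream of its start. Its gene-body peaks, 3 in each list, all lay in the 90.3 kb intron of the longer Tlr4 transcript, and none overlapped the 15.2 kb transcript. In MIZ-1WT the summits lay 56790, 74924 and 76703 bp after the start, with pileups of 9, 6 and 9 fragments. In MIZ-1DPOZ they lay 75001, 75485 and 76706 bp after the start, with pileups of 19, 36 and 29 fragments. The last 2 MIZ-1WT peaks overlapped the first and last MIZ-1DPOZ peaks, and the middle MIZ-1DPOZ peak, the highest of all member peaks with a −log10 q of 23.2, had no MIZ-1WT counterpart.

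Sequence at these Tlr4 summits was not unique. The median number of genomic copies among 5 words of 50 bases around the summit was 60 and 3 for the last 2 MIZ-1WT peaks. For the MIZ-1DPOZ peaks it was 15, 13 and 3. From 17.9% to 100% of the sequence within 100 bp of these summits was repeat-masked. The first MIZ-1WT peak had a median of 1 copy, 85.1% masked sequence and 0 CpG. Depth-scaled pileups of the overlapping pairs were 2.36 times (exact 95% interval 0.907 to 7.23) and 2.40 times (1.11 to 5.77) as high in MIZ-1DPOZ. The latter interval lay above equality, and with scaling by the most frequent background of each list it ran from 0.948 to 4.94. The local background moved with them: at the Tlr4 peaks it was from 2.17 to 2.23 times the most frequent value of the MIZ-1DPOZ list and at most 1.01 times that of the MIZ-1WT list. By fold enrichment, which divides by that background, the ratios were 1.35 and 1.42. The part of copied sequence in these values was not tested.

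Tlr8, an endosomal RNA receptor, had 1 MIZ-1DPOZ peak (chrX:167246160-167246565) with its summit in an intron, 17541 bp after the nearest start. Its pileup was 9 fragments and its −log10 q 3.13. The sequence within 100 bp of the summit was wholly repeat-masked, and its words had a median of 271 copies in the genome. The other receptors for nucleic acids had none. Nearest peaks lay 17.4 kb (MIZ-1WT) and 11.5 kb (MIZ-1DPOZ) from a start of Tlr3, the receptor for double-stranded RNA, 116 and 41.1 kb from Tlr7, and 19.4 and 7.54 kb from Tlr9. The absence of called peaks thus covered Tlr7 and Tlr9, the endosomal receptors best known in mouse B cells, and is not a measure of no signal there. Both have 0 to 12 CpG within 500 bp of the first start. Of all coding genes in that class, 4.38% had a MIZ-1WT and 11.2% a MIZ-1DPOZ promoter-window peak.

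**Figure D2:**
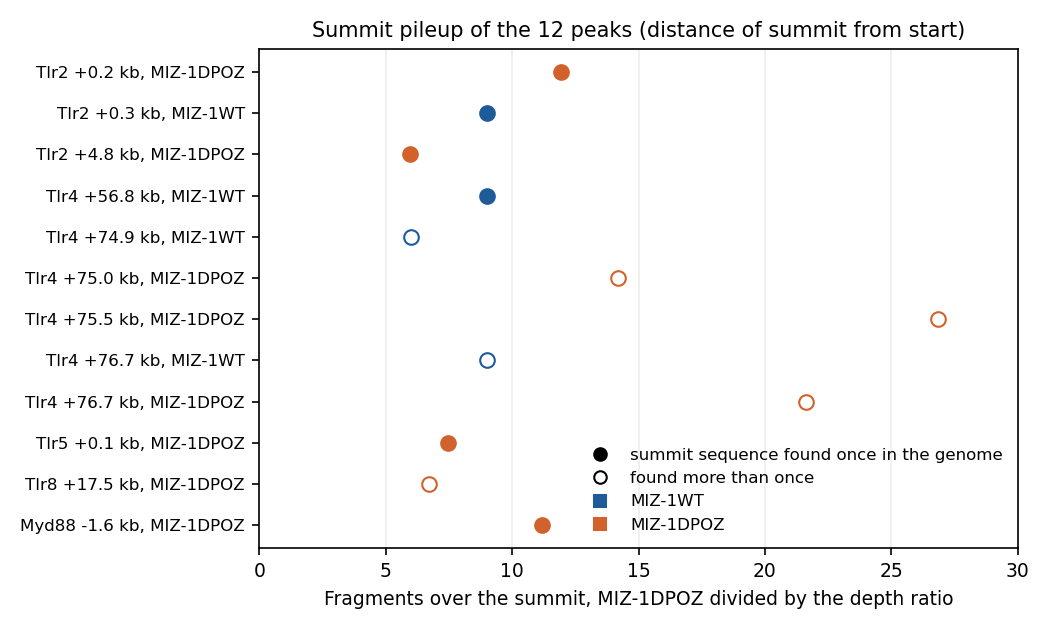
Summit pileup of each of the 12 member peaks. The horizontal axis gives fragments over the summit, with MIZ-1DPOZ values divided by the depth ratio of 1.34, and labels give the gene, the distance of the summit from the start in kb and the list. Filled points (found once in the legend) are summits whose words had a median of 1 genomic copy, and open points are those with a higher median. The 3 Tlr4 peaks of MIZ-1DPOZ lie highest, at 14.2, 26.9 and 21.6, and all are open points, while the remaining peaks lie between 5.97 and 11.9.

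In the gene bodies, 2 members had a MIZ-1WT peak (Tlr2 and Tlr4) and 5 had a MIZ-1DPOZ peak (Tlr2, Tlr4, Tlr5, Tlr8 and Myd88), against 42.0% and 62.8% of all protein-coding genes. These shares rose with gene length, from 17.9% and 35.7% of genes under 10 kb to 88.3% and 98.2% of those over 100 kb. Of the members 5 were under 10 kb and 4 were between 10 and 30 kb, where the shares were 38.1% and 63.8%. Tlr4, at 103 kb in its longest form, was the only one over 100 kb.

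The lists together held 12 peaks at the members, 4 in MIZ-1WT and 8 in MIZ-1DPOZ. Of these, 3 of the 4 MIZ-1WT peaks and 3 of the 8 MIZ-1DPOZ peaks overlapped a peak of the other list. Over all peaks, 53.7% of the MIZ-1WT list and 22.1% of the MIZ-1DPOZ list did so. Of the promoter-window peaks of members, 1 of 1 in MIZ-1WT and 1 of 3 in MIZ-1DPOZ overlapped the other list. Among promoter-window peaks of all coding genes, 73.3% of 7586 MIZ-1WT and 41.2% of 13153 MIZ-1DPOZ peaks did so. Summits with a median of 1 copy (single-copy) numbered 2 of the 4 in MIZ-1WT and 4 of the 8 in MIZ-1DPOZ, gene-body peaks included. The 4 promoter-window peaks of members were all single-copy by this median, beside 96.0% and 94.4% of all promoter-window peaks. With a −log10 q of at least 5, no MIZ-1WT promoter-window peak was left among the members (9.77% of all genes kept one), and Tlr2 and Myd88 kept theirs in MIZ-1DPOZ (33.3% of all genes).

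The starts of the members were poor in CpG dinucleotides, which the rule did not use. Within 500 bp of the first start, the members had a median of 17 CpG against 43 over 21938 genes. Tlr8 had 7, Tlr1 and Tlr7 had 11 each, Tlr9 had 12, Tlr4 had 15 and Tlr3 had 19, all genes without a promoter-window peak. Tlr6 had 28 and also no peak, and the genes with peaks followed with 31 (Tlr5), 35 (Tlr2) and 51 (Myd88). Within the set, the 3 genes with a MIZ-1DPOZ peak were thus the 3 with most CpG. The counted window of Myd88 does not hold its peak, which lay 1.35 kb upstream of that start.

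Over all protein-coding genes the share with a promoter-window peak rose with CpG content in both lists. Among genes with 0 to 12 CpG, 4.38% had a MIZ-1WT peak and 11.2% a MIZ-1DPOZ peak. These shares were 15.5% and 36.6% with 13 to 43 CpG, 36.0% and 60.7% with 44 to 71, and 68.8% and 87.4% with 72 to 180. Of the members 4 fell in the first class, 5 in the second, 1 in the third and 0 in the last. Averaging the class shares over the 10 genes gave 13.1% for MIZ-1WT and 28.8% for MIZ-1DPOZ, beside the observed 10% and 30%. The 30% counts the Myd88 peak, which a rule of the nearest start gives to Acaa1a.

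**Figure D3:**
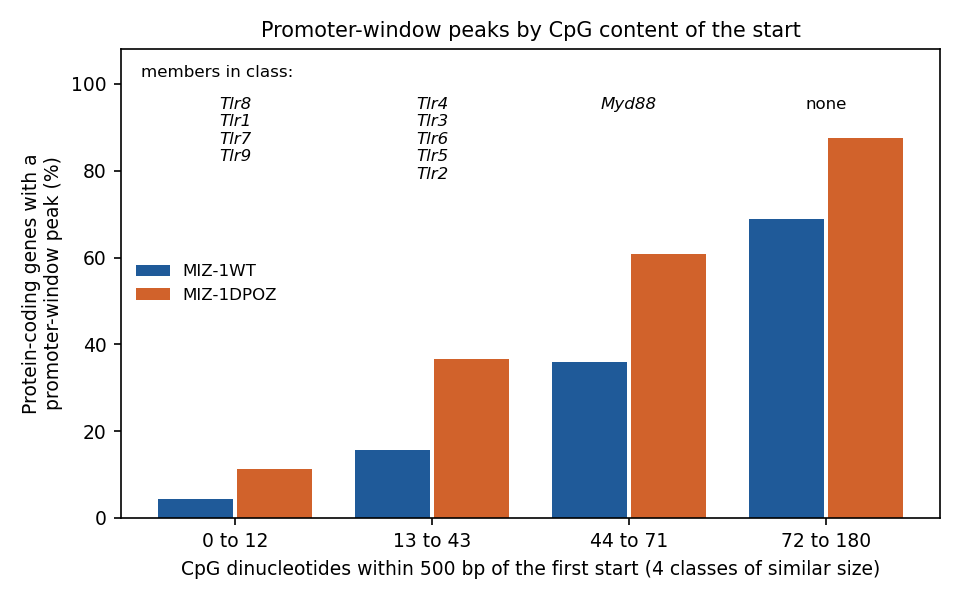
Share of all protein-coding genes with a promoter-window peak (vertical axis, percent) in 4 classes of genes by the number of CpG dinucleotides within 500 bp of the first start (horizontal axis), for MIZ-1WT (blue) and MIZ-1DPOZ (orange), with the members of each class written above. The bars rise from 4.38% and 11.2% to 68.8% and 87.4%, and 9 of the 10 members fall in the first 2 classes.

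Base content at the summits differed among the promoter-window peaks of members. Sequence within 100 bp of the Tlr2 summits held 65.2% (MIZ-1WT) and 66.2% (MIZ-1DPOZ) G or C, with 12 CpG each. The Tlr5 summit had 64.2% and 10 CpG, and the Myd88 summit had 73.1% and 25 CpG. Across all promoter-window peaks the median was 73.6% in MIZ-1WT and 70.6% in MIZ-1DPOZ, with lower quartiles of 69.2% and 66.2%. The Myd88 peak thus lay above its list's median, and the others were at or below the lower quartile.

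Letters of 4 known promoter elements were searched in the same windows on both strands: CACGTG (the E-box bound by MYC and MAX), CCGGAAG (ETS factors), GGGCGG (GC box, SP factors) and CCAAT (NF-Y). The GC box letters were found at 3 of the 4 promoter-window summits of members, both at Tlr2 and the one at Myd88, and in 65.1% of all MIZ-1WT and 56.2% of all MIZ-1DPOZ promoter-window peaks. At Tlr5 they lay within the peak but not wholly within 100 bp of the summit. The ETS letters were found at Tlr5, and in 5.55% and 4.87% of all such peaks. None of the 12 member peaks, gene-body peaks included, held the E-box or CCAAT letters within 100 bp of the summit. Whole peaks were not searched. Among promoter-window peaks alone, these letters were present in 4.63% and 9.28% in MIZ-1WT and in 3.79% and 9.91% in MIZ-1DPOZ.

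The remaining pathway was described with 49 genes that act with or after the receptors. Of these, 21 (42.9%) had a promoter-window peak in MIZ-1WT, 30 (61.2%) had one in MIZ-1DPOZ and 19 had one in both, beside the background shares of 30.9% and 48.7% of all genes. By role, all 5 ubiquitin enzymes and 6 of 7 transcription factors had a MIZ-1DPOZ peak, as did 7 of 12 kinases or kinase subunits, 6 of 8 inhibitors, 4 of 9 accessory or trafficking proteins, 2 of 5 adaptors and 0 of 3 further mouse receptors (Tlr11, Tlr12 and Tlr13). In the same order, the MIZ-1WT counts were 4, 5, 4, 3, 3, 2 and 0. The starts of these 49 genes had a median of 57 CpG, and averaging the class shares over them gave 38.5% for MIZ-1WT and 57.5% for MIZ-1DPOZ. Each role holds only 3 to 12 genes, and the class shares were not averaged by role. No test was made of the lists against each other.

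Among the genes marked in both lists, Traf3, a ubiquitin ligase that restrains noncanonical NF-κB in B cells, had the highest lower score. Its best-scored MIZ-1WT peak (chr12:111166247-111166409) had 12 fragments (−log10 q 6.42), and its MIZ-1DPOZ peak (chr12:111166484-111166901), which does not overlap that peak, had 15 (8.76). The NF-κB subunit genes Rel, Nfkb2 and Nfkb1 followed with Cnpy3, which encodes a chaperone needed to fold the receptors. The best-scored Nfkb1 peaks had 10 fragments in MIZ-1WT and 13 in MIZ-1DPOZ and shared 157 bp, and those of Cnpy3 had 10 and 13 and shared 169 bp. The best-scored Rel peaks, with 11 and 12 fragments, shared only 17 bp. The Nfkb2 peaks, with 13 and 14 fragments, did not overlap. Of the 19 genes with a promoter-window peak in both lists, 18 had peaks that overlapped between the lists, the exception being Nfkb2. The same share was not computed for the 5848 coding genes with a peak in both lists, so 18 of 19 has no background beside it. Promoter-window peaks of all coding genes had interquartile ranges of 8 to 11 fragments in MIZ-1WT and 10 to 15 in MIZ-1DPOZ.

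The genes marked in MIZ-1DPOZ alone numbered 11 of the 49 (22.4%), beside 22.0% of all coding genes, and those marked in MIZ-1WT alone numbered 2 (4.08%), beside 4.23%. Tab3, a subunit of the TAK1 complex, had 22 fragments (−log10 q 16.8), and Irak3, an inhibitory member of the IRAK family, had 16 (8.76). Map3k7, the gene of TAK1 itself, had 14 (7.89), Traf6 had 11 (5.05) and Chuk, which encodes an IκB kinase, had 10 (4.19, a score shared with Cd36 and Irak4). In the MIZ-1WT list alone were Tab1, with 9 fragments (4.14), and Ikbkb, with 6 (1.76). Among the other adaptors Tirap, which links MyD88 to Tlr2 and Tlr4, had 10 fragments in MIZ-1WT and 9 in MIZ-1DPOZ, and Ticam1, the adaptor of Tlr3, had no peak.

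**Figure D4:**
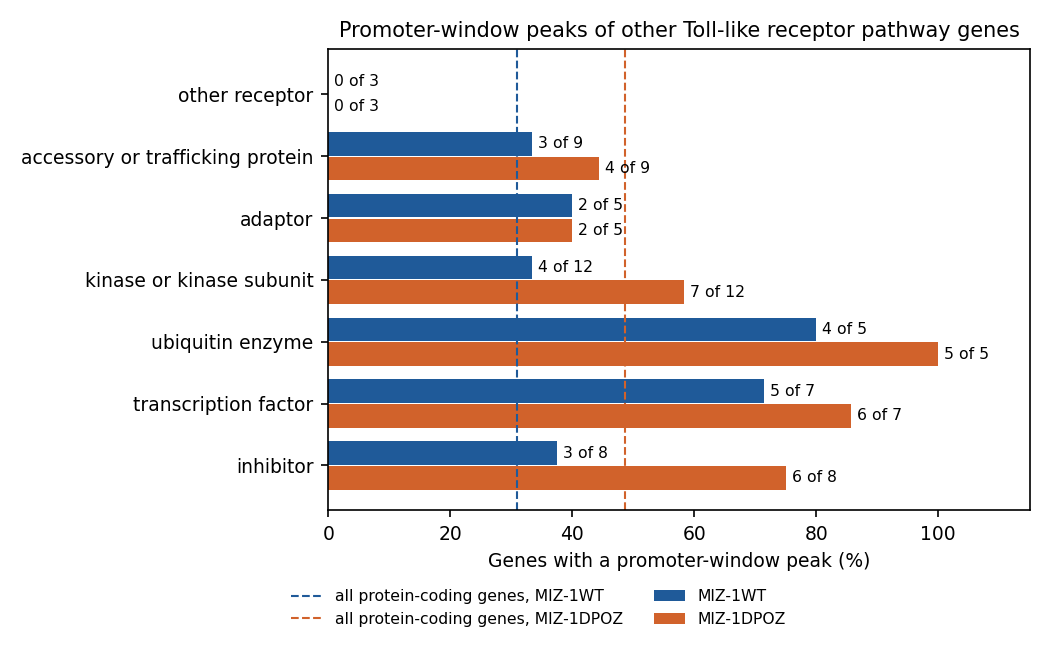
Percent of the other Toll-like receptor pathway genes with a promoter-window peak (horizontal axis), by role (vertical axis), in MIZ-1WT (blue) and MIZ-1DPOZ (orange), with counts beside the bars. Dashed lines mark the shares of all protein-coding genes, 30.9% and 48.7%. Ubiquitin enzymes, transcription factors, kinases and inhibitors lie above the line of each list. Accessory proteins and adaptors lie above it in MIZ-1WT alone, and the further receptors are at 0 of 3.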

How the data were processed

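The 2 MIZ-1 peak lists, each called by the authors on 1 ChIP library against 1 input library, were used as deposited. The authors aligned paired-end reads to mm10 and called narrow peaks with MACS2. The methods name bwa as aligner and another MACS2 release than the submitters' processing notes, which name Bowtie2 2.2.6 and MACS2 2.1.0. The cutoff and the treatment of duplicate or multiply mapped reads are not given in the sources used here. The deposited fold enrichment is a ratio of summit pileup to local background, and the deposited −log10 p-values and q-values are Poisson scores.

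From the deposited fold and −log10 p-value, MACS2's formulas with a pseudocount of 1 were inverted to give each summit's pileup and background. Scores computed back from them differed by more than 0.001 for 9 MIZ-1WT and 11 MIZ-1DPOZ peaks. When tested on 1308 peaks simulated with the same formulas, the inversion returned every pileup, which checks its arithmetic only. The depth ratio was estimated as the most frequent background per bp of the smallest peak width (148 and 173 bp), MIZ-1DPOZ over MIZ-1WT. Reads and inputs were not analysed here, so total depth is unknown.

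Windows came from the GENCODE basic annotation, places in transcripts from the full one, and sequence and repeat masking from RefSeq GRCm38. An overlap needed 1 bp. Copies are the median number of genomic occurrences among 5 words of 50 bases at a summit. A summit with a median of 1 can therefore still hold words that occur more often. Positions are 1-based. Pileup ratios have exact binomial 95% intervals. Members, pathway genes and rules were chosen with earlier results of these data known. Of the pathway genes, those named were the 5 with the largest −log10 q in each class (marked in both lists, by the smaller value, or in 1 list), plus Tirap, Ticam1, Tlr11, Tlr12, Tlr13, Cd36 and Irak4, chosen after their values were seen. Python 3.11.15 with scipy 1.17.1 and pysam 0.24.0 was used.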

Additional observations from a re-analysis of the deposited data

How the results depend on the processing

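Of 72 alternative values, 55 stayed within 1.5 times the reported count or within the counting interval and 17 moved beyond it. Some of the 55 could not move, since keeping only the best MIZ-1DPOZ peaks left the MIZ-1WT list whole. The counting intervals of the ratios were also wide, so the tally is no measure of robustness. With a −log10 q of at least 5, MIZ-1WT kept 0 peaks at members, and so 0 members with a promoter-window peak, 0 with a gene-body peak, 0 in both lists and 0 overlaps in either list, while MIZ-1DPOZ kept 5 peaks and 3 members with a gene-body peak. The same 5 and 3 resulted from a fold enrichment of at least 5 and from the 34209 best MIZ-1DPOZ peaks, the latter leaving out the peaks of Tlr5, Tlr8 and the Tlr2 coding exon. With single-copy summits, 2 MIZ-1WT and 4 MIZ-1DPOZ peaks remained, 1 of each list overlapped the other, and 3 members had a MIZ-1DPOZ gene-body peak. Other windows, start sets and overlap rules changed no count by more than 1.5 times. The Tlr4 ratio of 2.40, whose interval lay above 1 when scaled by the depth ratio, was 2.06 (0.948 to 4.94) when scaled by the most frequent background. No paired analysis was possible because there was just 1 ChIP library per genotype. Pileups of 6 to 36 fragments limit every ratio.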
